A study of Vitis vinifera with 74 samples.

Results

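The comparison described here sets buds of the grapevine cultivar Cabernet Franc 24 h after a water spray against buds of the same experiment sampled before any spray. Its members are 6 count columns, 3 of the 24 h control and 3 of pre-treatment, out of 34 bud columns and 74 columns in the whole series; they were chosen by their labels alone. All of these buds sat on single-node cuttings of dormant canes from field-grown vines that had received more than 1200 chilling hours. The cut ends stood in water in a growth room at 22 °C with 16 h of light and 8 h of dark, and sprays were given when the buds had reached the woolly stage. The 24 h controls were sprayed with deionized water only, and the pre-treatment buds with nothing. Other buds of the experiment serve as context: water controls at 6, 12, 48 and 72 h, and, at the same 5 times, ABA buds, whose spray held S-ABA at 5 mM (1322 mg per litre). The 72 h samples carry another time, 75, in a code of their descriptions, and the title's time is used. The number of buds or vines behind a library is not given in the labels. Leaves of potted greenhouse vines of the same cultivar, from another experiment, are also set beside the buds. They were taken before a spray of water with Tween-20 and 24 h after it. The labels give them fewer hours of light than the buds, at the same day temperature of 22 °C.

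A grapevine bud that has met its chilling need loses its freezing tolerance when it is held in the warm, a change called deacclimation, and then resumes growth. The woolly stage comes just before green tissue shows, when the scales have parted over brown hairs. Abscisic acid (ABA) is a hormone known for its part in bud dormancy and in tolerance of cold and drought. The 24 h controls therefore follow buds that go on in the warm without added hormone.

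The deposited tables hold gene identifiers without names, and 0 of the 42413 identifiers occurred in the RefSeq gene table at hand. Genes are described as groups defined by their response, 4 identifiers are printed, and no bud marker could be looked up to check the tissue label. The 3 columns of a group were not separate samples by the measure used here. The chi-square statistic of a pair, taken over genes with 20 or more counts and divided by its degrees of freedom, is 1 for sampling noise alone, and it lay between 1.06 and 1.17 in the 6 pairs within the groups. In the 9 pairs of a 24 h and a pre-treatment column it lay between 10.3 and 12.5. The labels state that libraries were sequenced in triplicate, so the columns of a group were summed and counted as 1 sample. The comparison therefore has no replicate check and no p-value, and a difference between buds of one time cannot be told apart from an effect of time. The 4 columns of the 48 h control stood further apart from each other, at 1.34 to 2.00. Shares, main list medians and the counts between 24 and 48 h are given with all 4 and with single columns left out. Counts of list genes 2-fold apart in comparisons with the 48 h control, and values at 100 CPM or more, are given with all 4 only. The summed libraries held 6708283 counts before treatment and 6318281 at 24 h, from columns of 1949546 to 2409865 counts. Buds are whole organs: fewer cells of a type and less RNA per cell cannot be told apart in these data.

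After 24 h in the warm with water, 826 bud genes stood at least 2-fold higher and 888 lower, and most differences were small. Levels are in CPM, the usual depth-scaled count, after scaling of the libraries, and differences are in log2 CPM with a prior count of 2. Of 16214 genes tested these were 5.09% and 5.48%, together 10.6%. Which direction held more genes depended on the scaling: with library totals alone 964 were higher and 767 lower. At least 4-fold higher were 66 genes and at least 4-fold lower 90, at least 8-fold 2 and 5, and at least 16-fold 1 and 1. The median absolute log2 difference over all tested genes was 0.35, with quartiles of 0.16 and 0.65. The 826 higher genes had a median log2 difference of 1.27 (quartiles 1.12 and 1.58) and the 888 lower genes of −1.32 (quartiles −1.64 and −1.12). Of these, 8 and 4 genes had no count in the library where they were low, and setting them to a bound of 3 counts left both medians as they were to 2 decimals.

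**Figure D1:**
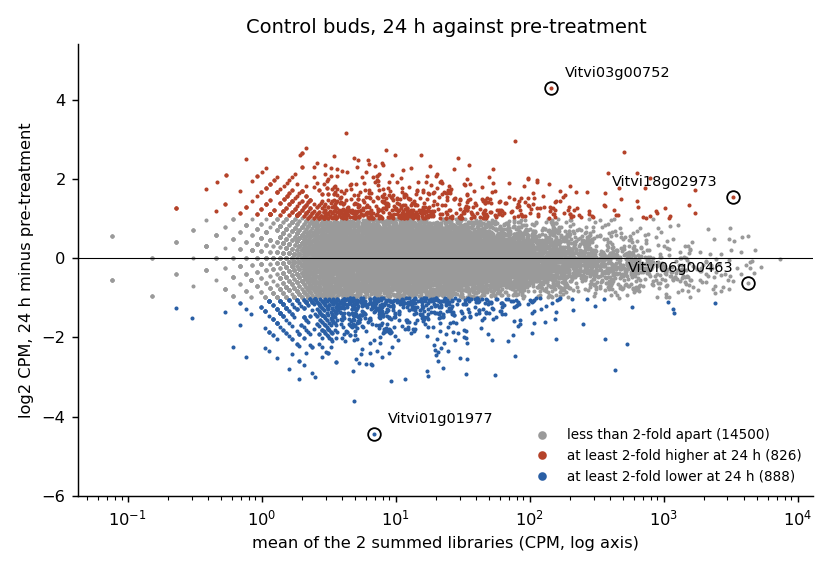
Each point is 1 of 16214 genes, with its mean level in the 2 summed libraries (CPM, log axis) across and the log2 CPM difference of 24 h minus pre-treatment upward; red points are the 826 genes at least 2-fold higher, blue points the 888 at least 2-fold lower, and circles mark the 4 named genes. At high levels more red than blue points are seen, 75 against 35 at 100 CPM or more.

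The balance of higher and lower genes differed with abundance. At a mean of 100 CPM or more, 75 of 1766 genes were at least 2-fold higher (4.25%) and 35 at least 2-fold lower (1.98%). Under 10 CPM, 477 of 6510 were higher (7.33%) and 590 lower (9.06%). Classes of level were compared under the main scaling only, and the balance over all tested genes was reversed with library totals alone. The higher genes carried 2.27% of the counts before treatment (95% exact binomial interval 2.26 to 2.28%) and 6.23% at 24 h (6.21 to 6.25%). The lower genes carried 3.13% before (3.12 to 3.14%) and 1.27% at 24 h (1.27 to 1.28%). These intervals cover counting error only. The 10 genes with the largest CPM differences in each list made up 33.9% of the summed CPM difference of the higher list and 37.7% of that of the lower list.

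Columns of one group lay 2-fold apart mainly in weakly expressed genes. Between single columns, each shallower than its sum, 579 to 687 genes lay 2-fold or more apart within a group (6 pairs) and 1920 to 2125 across the groups (9 pairs). Under 5 CPM, 12.0% of genes were 2-fold apart between columns of one group and 21.4% between columns of different groups, averaged over pairs. From 10 to 50 CPM these shares were 0.437% and 8.56%, and at 100 CPM or more 0% and 6.30%. The 3 columns of 24 h lay wholly above or wholly below the 3 of pre-treatment in 44.7% of all tested genes. This held for 737 of the 826 higher genes (20.3% of all tested genes lay wholly above) and for 812 of the 888 lower genes (24.4% lay wholly below). Columns resample one library, so a lack of overlap between them is no replicate check.

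**Figure D2:**
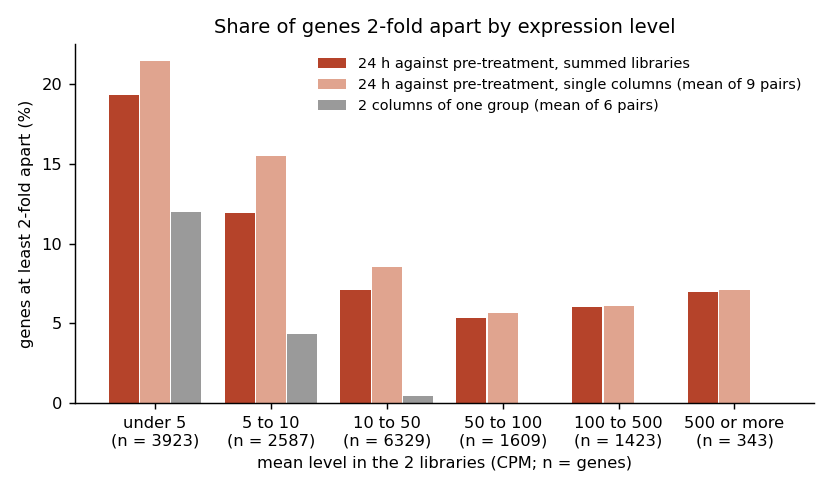
Bars give the percentage of genes at least 2-fold apart in 6 classes of mean level (CPM, number of genes in brackets), for the summed 24 h and pre-treatment libraries, for pairs of single columns from the different groups, and for pairs of columns from one group. Pairs within a group fall from 12.0% under 5 CPM to 0.437% at 10 to 50 CPM, while the summed libraries stay between 5.34% and 7.13% in the 4 classes from 10 CPM upward.

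Few genes were switched fully on or off at this depth. Over the full set of identifiers, 4 genes had no count before treatment and at least 10 at 24 h, and the most abundant of them, with 14 counts, was at least 4.71-fold higher with 3 counts over the group as the floor. At least 10 counts before and none at 24 h were found in 11 genes. The most abundant of these had 21 counts and was at least 6.94-fold lower by the same floor.

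Vitvi03g00752, the gene with the largest fold upward by the naming rule, went from a low to a high level. It had 30, 25 and 35 counts in the 3 pre-treatment columns (14.4, 10.6 and 16.5 CPM) and 585, 702 and 501 in the 24 h columns (279, 292 and 249.5 CPM). The naming rule admits only genes whose columns do not overlap between the groups, so the lack of overlap was set in advance. The summed counts of 90 and 1788 gave a level 20.1-fold higher at 24 h, with a 95% exact counting interval of 16.2 to 25.1. Such intervals of the named genes take no account of their choice as extremes. In the summed controls Vitvi03g00752 stood at 13.7 CPM before treatment and 275 at 24 h, and the libraries of 6, 12, 48 and 72 h had 88.4, 46.9, 284 and 496 CPM. The 12 h control thus lay below both its neighbours in time. The 4 columns of the 48 h control had 213, 314, 309 and 301 CPM, of which the first was low. The ABA buds had 31.4, 368, 432, 576 and 287 CPM at 6, 12, 24, 48 and 72 h, lower than the control at 6 and 72 h and higher at the times between. In control leaves Vitvi03g00752 ran from 256 to 1229 CPM before a spray of water with Tween-20 (median 582, n = 8). After 24 h it ran from 974 to 1607 CPM (median 1279, n = 4), and the groups overlapped. Its leaf log2 difference of 1.08 did not pass (edgeR adjusted p = 0.0948). Leaf and bud tables were scaled separately, so their CPM values are set side by side only.

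Vitvi18g02973, the gene with the largest upward difference in CPM, was abundant at both times. It stood at 1625, 1552 and 1848 CPM in the pre-treatment columns and at 4861, 4798 and 4982 CPM in the 24 h columns. The naming rule required columns without overlap here too. The summed counts of 10974 and 31725 gave a level 2.92-fold higher (counting interval 2.85 to 2.98). Across the summed controls Vitvi18g02973 had 1671 CPM before treatment, 4875 at 24 h, and 5541, 3057, 8193 and 11018 CPM in the libraries of 6, 12, 48 and 72 h. Like Vitvi03g00752 it was lower at 12 h than at 6 and 24 h. With ABA it had 3131, 5262, 5985, 5836 and 4619 CPM, below the controls at 6, 48 and 72 h. In control leaves Vitvi18g02973 was abundant too, with 12834 to 25209 CPM before the spray (median 15818) and 14961 to 22927 CPM 24 h after it (median 16404), and did not pass (edgeR adjusted p = 0.999).

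Vitvi01g01977, the gene with the largest fold downward, was nearly lost from control buds. It had 27, 38 and 23 counts in the pre-treatment columns (12.9, 16.1 and 10.8 CPM) and 1, 0 and 1 in the 24 h columns. The summed counts of 88 and 2 gave a level 43.6-fold lower at 24 h, with a counting interval of 11.7 to 366. The other controls, of 6, 12, 48 and 72 h, held 14, 13, 3 and 1 counts, so the level was low in each. With ABA the gene stood at 12.3, 5.91 and 12.6 CPM in the first 3 samplings (60, 26 and 79 counts), and the last 2 had 4 and 0 counts. At 24 h the ABA columns had 16, 31 and 32 counts. The naming rule chose the gene for its low control columns at 24 h, so a contrast with them was partly set by that choice.

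Vitvi06g00463, the gene with the largest downward difference in CPM, differed by less than 2-fold. It stood at 5123, 5311 and 5105 CPM in the pre-treatment columns and at 3369, 3310 and 3352 CPM at 24 h, without overlap by the naming rule. The level at 24 h was 0.645 of that before treatment (counting interval 0.634 to 0.656), a log2 difference of −0.63. The other controls lay between 2905 CPM at 12 h and 4210 CPM at 72 h, below pre-treatment at each of the 5 times. With ABA Vitvi06g00463 had 3372 CPM at 24 h, close to the control, and 1506 CPM at 48 h, against 3384 CPM in the 48 h control. In leaves its level was low, from 0.453 to 8.93 CPM before the spray (median 3.57) and from 0.948 to 6.76 CPM after 24 h (median 2.27), and the log2 difference of −0.57 did not pass (edgeR adjusted p = 0.799).

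**Figure D3:**
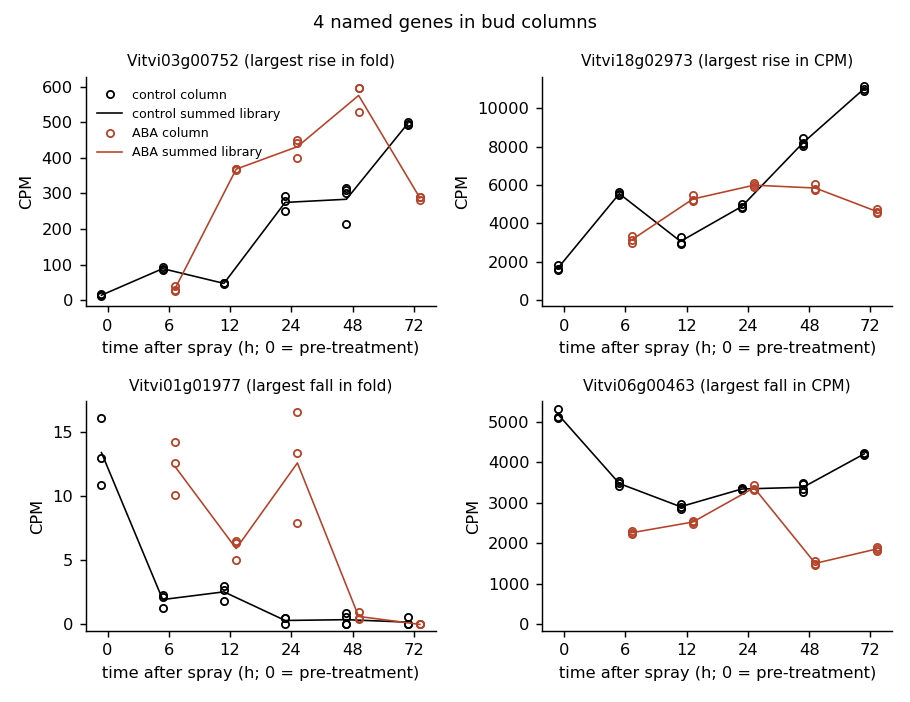
The 4 panels show the level (CPM, from 0) of the named genes in every bud column against the time after the spray (sampling times evenly spaced, not to scale), with the summed libraries joined by lines, control in black and ABA in red. Vitvi03g00752 and Vitvi18g02973 end at their highest control level at 72 h (496 and 11018 CPM). Vitvi01g01977 has 12.6 CPM in ABA buds at 24 h, where the control, whose low level chose the gene, has 2 counts.

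Among the controls, the 24 h library was nearer to the 12 h and 48 h libraries than to pre-treatment. From the 24 h library 711 genes at 12 h (4.39%) and 813 at 48 h (5.01%) were at least 2-fold apart, against 1714 before treatment, 1087 at 6 h (6.7%) and 3794 at 72 h (23.4%). The differences between 24 and 48 h ran mainly upward, with 677 genes at least 2-fold higher at 48 h and 136 lower, or 609 to 754 and 157 to 165 without single 48 h columns (768 to 919 in all). The ABA buds of 24 h differed from the controls of the same time in 3002 genes (18.5%). These comparisons share the 24 h library, and the libraries differ in depth, from 5196438 counts at 12 h to 7698363 at 48 h.

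The genes that stood higher at 24 h stayed high in later controls, while those that stood lower were back near their starting level at 72 h. All of the following differences use the pre-treatment library, which also made the lists, so they are levels set side by side and no independent support. In the controls of 6, 12, 24, 48 and 72 h the higher list had median log2 differences from pre-treatment of 0.72, 0.81, 1.27, 1.50 and 1.72. The lower list had −0.87, −0.74, −1.32, −0.68 and −0.17. Over all tested genes these medians lay between −0.03 and 0.09. At 72 h the lower list was spread widely, with quartiles of −1.14 and 0.59, and its median was −0.092 and −0.099 without column 2 or 3 of 24 h and −0.39 without the count filter. Of all counts, the higher list took 4.66%, 3.93%, 8.37% and 12.1% in the controls of 6, 12, 48 and 72 h. The lower list carried 1.56%, 1.78%, 2.03% and 3.02% at these times. Without single 48 h columns the 48 h medians ran from 1.49 to 1.53 and from −0.75 to −0.64, and the 48 h shares from 8.31% to 8.45% and from 1.95% to 2.11%.

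In ABA buds the higher list also stood above pre-treatment, at medians of 0.82, 0.90, 1.02, 0.67 and 1.09 at 6, 12, 24, 48 and 72 h. The lower list had −1.21, −1.38, −1.26, −0.17 and −0.05. At 24 h, the quartiles in ABA buds were 0.40 to 1.68 and −1.97 to −0.43, and both medians had the sign of the controls. The 2-fold rule on the 24 h control fixed its sign and cut its spread. The widths of the quartiles are therefore not compared. The last value of the lower list took either sign, from −0.095 to 0.014, when single columns were left out, and was −0.22 without the count filter.

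**Figure D4:**
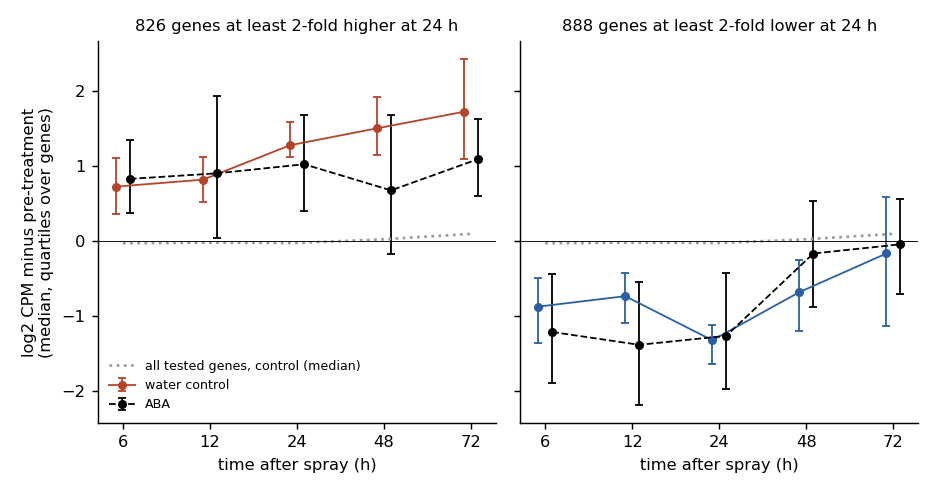
The left panel shows the 826 genes at least 2-fold higher at 24 h and the right panel the 888 lower genes, as the median and quartiles over genes of log2 CPM minus pre-treatment at 5 times (evenly spaced, not to scale), in water controls (colour, solid) and ABA buds (black, dashed), with the median of all tested genes in controls dotted. The control median of the higher genes climbs from 0.72 to 1.72, and that of the lower genes returns from −1.32 at 24 h to −0.17 at 72 h; 24 h and pre-treatment chose the genes.

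From 48 to 72 h more of the lower genes were at least 2-fold higher than lower at the later time, but not among those at 100 CPM or more. Neither library enters the 24 h difference, but both enter the count filter over all 11 libraries, so a gene abundant in either could be tested. Between the 48 and 72 h controls, 204 of the 888 lower genes were at least 2-fold higher at 72 h (23.0%, against 5.46% of all tested genes) and 52 lower (5.86%, against 3.19%). Of the 826 higher genes 83 were at least 2-fold higher at 72 h (10.0%) and 34 lower (4.12%). The median log2 difference was 0.54 for the lower list and 0.27 for the higher list, against 0.04 over all tested genes. It was 0.54 and 0.27 again with a filter on the pre-treatment and 24 h libraries alone, chosen after seeing the data, 0.34 and 0.14 without any count filter, and 0.46 for the 66 genes at least 4-fold higher at 24 h. Without single 48 h columns it ran from 0.49 to 0.57 and from 0.27 to 0.29. Among genes at 100 CPM or more, the 75 higher ones had a median of 0.43 and the 35 lower ones of 0.11, against −0.23 over all 1766. Of these 35, 5 were at least 2-fold higher at 72 h (14.3%, against 1.02% of the 1766) and 6 lower (17.1%, against 4.19%).

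Between 6 and 12 h genes of both lists were at least 2-fold apart in either direction more often than all tested genes, with medians near 0. At 12 h 101 of the lower genes were at least 2-fold higher than at 6 h (11.4%, against 5.01% of all tested genes) and 33 lower (3.72%, against 1.99%). Of the higher list 59 genes were higher (7.14%) and 41 lower (4.96%). The medians were 0.12 for the lower and 0.08 for the higher list, against 0.00 over all genes. For the genes at least 4-fold apart at 24 h they were 0.38 and −0.03. The lists hold weaker genes (medians of 7.13 and 5.65 CPM, against 14.5), and the shares of all tested genes are not matched for level. At 100 CPM or more, 2 of the 75 higher genes were higher at 12 h and 2 lower (2.67% each, against 1.87% and 0.453% of the 1766). Of the 35 lower genes of that level 5 were higher and 1 lower (14.3% and 2.86%).

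ABA buds of 48 h and 72 h stood below the controls of their time in many of the genes that were higher at 24 h. At 48 h 362 of the 826 higher genes were at least 2-fold lower with ABA (43.8%, against 11.3% of all tested genes) and 113 higher (13.7%, against 12.7%). At 72 h 325 were lower (39.3%, against 7.3%) and 76 higher (9.20%, against 7.89%). The medians were −0.81 at 48 h and −0.62 at 72 h, against −0.01 and 0.03 over all tested genes. With a filter on the pre-treatment and 24 h libraries alone, chosen after seeing the data, they were −0.82 and −0.66. For the 66 genes at least 4-fold higher at 24 h the medians were both −1.44, and the 72 h value was −0.39 without the count filter. The 48 h median ran from −0.83 to −0.79 without single 48 h control columns. Among the 75 higher genes at 100 CPM or more, 56 were at least 2-fold lower with ABA at 48 h (74.7%, against 17.0% of the 1766 genes of that level) and 51 at 72 h (68.0%, against 7.93%).

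At 6 and 12 h more genes of the higher list were at least 2-fold higher with ABA than lower. Over all tested genes this held at 6 h, while at 12 h the direction depended on the count filter. At 100 CPM or more, more genes of the list were at least 2-fold lower with ABA than higher. At 12 h 217 of its genes were at least 2-fold higher with ABA (26.3%, against 15.7% of all tested genes) and 137 lower (16.6%, against 15.1%). The count filter over all 11 libraries includes the ABA buds. With a filter on the pre-treatment and 24 h libraries alone, 204 of 853 genes were higher at 12 h (23.9%, against 14.7%) and 140 lower (16.4%, against 15.1%). The 12 h median was then 0.05. This filter was chosen after seeing the data. At 6 h 155 were higher (18.8%, against 10.5%) and 90 lower (10.9%, against 5.39%). The upward lean at 6 h was also seen over all tested genes, with 1708 higher and 874 lower. The medians of 0.09 at 12 h and 0.12 at 6 h were close to 0 and depended on the settings. The 6 h value was −0.01 with a prior count of 5, and −0.45 for the genes at least 4-fold higher at 24 h, whose 12 h median was 0.72. Of the 75 higher genes at 100 CPM or more, 7 were higher and 20 lower with ABA at 12 h (26.7%, against 20.5% of the 1766 genes of that level), with a median of −0.43 against −0.35. At 6 h 2 of them were higher and 6 lower (8.00%, against 3.96%), with a median of −0.19 against −0.17.

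More of the genes that were lower at 24 h stood below than above the controls with ABA at 6 and 12 h, and more stood above them at 48 and 72 h. At 12 h 338 of the 888 were at least 2-fold lower with ABA (38.1%, against 15.1% of all tested genes) and 130 higher (14.6%, against 15.7%), with a median of −0.66. At 6 h 194 were lower (21.8%, against 5.39%) and 107 higher (12.0%, against 10.5%), with a median of −0.32. At 48 h 258 were higher with ABA (29.1%, against 12.7%) and 33 lower (3.72%, against 11.3%), with a median of 0.51. At 72 h 135 were higher (15.2%, against 7.89%) and 40 lower (4.50%, against 7.3%), with a median of 0.08. With the filter on the pre-treatment and 24 h libraries alone, the medians at 6, 12, 48 and 72 h were −0.32, −0.71, 0.45 and 0.09. Of the 35 lower genes at 100 CPM or more, 5 were higher and 4 lower with ABA at 48 h and 7 and 3 at 72 h, and their medians were 0.06 and 0.49, against −0.44 and 0.09 over the 1766 genes. At 12 h 2 of the 35 were higher and 16 lower, with a median of −0.72 against −0.35, and at 6 h 4 and 7, with −0.47 against −0.17. From 24 to 48 h within the ABA buds 452 of the lower genes were at least 2-fold higher at the later time (50.9%, against 9.75% of all tested genes) and 49 lower (5.52%, against 4.34%). That median was 1.02, or 0.68 without the count filter and 1.55 for the 90 genes at least 4-fold lower. Of the 35 lower genes at 100 CPM or more, 11 were higher (31.4%, against 1.36% of the 1766) and 6 lower (17.1%, against 4.25%), with a median of −0.12 against −0.32.

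**Figure D5:**
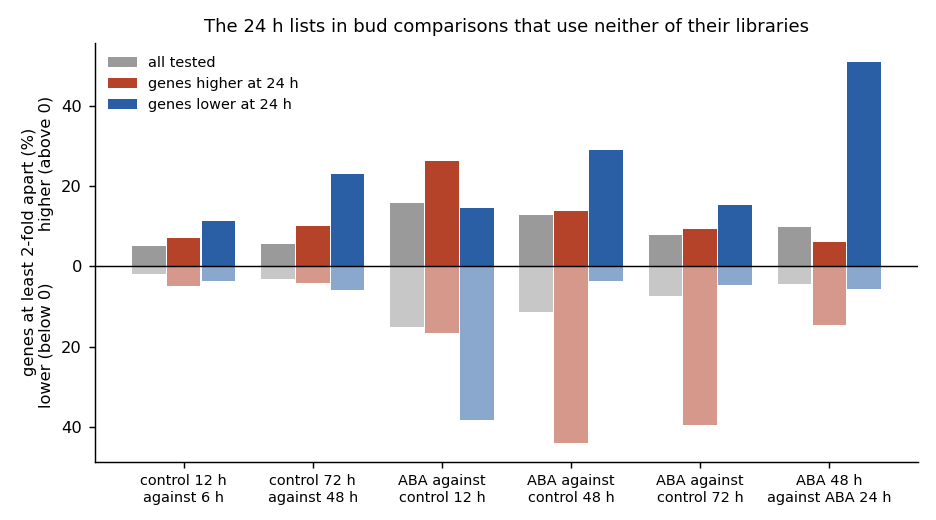
Bars above 0 give the percentage of genes at least 2-fold higher and pale bars below 0 the percentage at least 2-fold lower in 6 bud comparisons, for all 16214 tested genes (grey), the 826 genes higher at 24 h (red) and the 888 lower (blue). The red bars reach 43.8% and 39.3% below 0 for ABA against control at 48 and 72 h, and the blue bar 50.9% above 0 for ABA at 48 h against ABA at 24 h.

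Leaves of potted greenhouse vines of the same cultivar, taken before a spray of water with Tween-20 (8 libraries) and 24 h after it (4 libraries), came from another experiment and tissue. Fewer of the bud lists than of all bud genes could be tested there: 558 of 826 higher genes (67.6%) and 466 of 888 lower genes (52.5%), against 77.3% of all 16214. Both lists had lower bud levels than all tested genes, with medians of 7.13 and 5.65 CPM against 14.5. Of the 558 higher genes 8 rose in control leaves (1.43%, against 1.47% of the 12537 genes tested in both tissues) and 23 fell (4.12%, against 1.48%), by edgeR with adjusted p under 0.05. Of the 466 lower genes 2 rose (0.429%) and 3 fell (0.644%). The median log2 differences in leaves were 0.03 and −0.01, against 0.01. Without the libraries whose descriptions carry a second run code, none of them among these 12, 7 of the lower genes rose and 6 fell. The count of 23 was 12, 11 and 8 without leaf control 24 h replicate 2, 3 or 4, and the count of 8 was 2 without replicate 3 and 2 without replicate 4. Without replicate 4, 1 of the lower genes rose, and the 3 that fell became 1, 0 and 0 without replicate 2, 3 or 4.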

How the data were processed

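Transcript tags from the 3′ ends of polyadenylated RNA were sequenced with the QuantSeq kit on a NextSeq500, with 75 bp reads for buds, per the labels' protocols. What the authors deposited are raw counts of reads for each gene identifier. FastQC, STAR and DESeq2 are named, without versions, in the submitters' processing notes. The build, annotation and strand setting behind the counts: not given in the sources used here. Counts of near-identical genes and of overlapping or antisense genes are therefore uncertain. Headers were matched to sample titles, and 0 columns were left unused. The 4 header names of the leaf pre-treatment libraries each occur 2 times, so these 8 columns were matched to their group and not to single samples. Whether columns of the same name come from separate leaf samples was not tested. The leaf n of 8 and the leaf p-values may therefore rest on repeats. The columns of each of the 11 bud groups were summed. Genes were kept by filterByExpr by treatment (minimum count 10; 16214 genes, 99.6% of counts), scaled by TMM and expressed as log2 CPM with a prior count of 2 (edgeR 4.0.16, R 4.3.3). Single columns were scaled by the factor of their summed library. At least 2-fold apart is a rule of size, not a test. Leaves were tested with edgeR's quasi-likelihood test over 9 groups with Benjamini-Hochberg adjustment; limma 3.58.1 and DESeq2 1.42.0 were installed, and DESeq2 was run as an alternative. Leaf libraries are not tied to vines by the labels, so leaf p-values measure only the spread between these libraries. Alternatives were RLE scaling, library totals alone, other count filters, a prior count of 5, a 4-fold rule, tests on columns, and leaving out columns or libraries. Scripts were tested on simulated data. Named genes have at least 5 CPM on average over the 2 libraries and no overlap between their columns, and are the 1 with the largest fold and the 1 with the largest CPM difference in each direction. Gene lists by function, planned for identifiers with names, could not be formed. The members and lists were chosen with earlier results of these data known.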

Additional observations from a re-analysis of the deposited data

How the results depend on the processing

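The count of genes at least 2-fold apart (1714, with 826 higher and 888 lower) was 1731 (964 and 767) with library totals alone, 2808 (1311 and 1497) without the count filter, 959 (487 and 472) with at least 5 CPM on average and 156 (66 and 90) at 4-fold. Leaving out 1 column gave 1643 to 1756 genes, 784 to 897 higher and 831 to 934 lower. Tests that take columns as replicates compare these libraries, not the times: edgeR called 5628 genes (2808 and 2820) with all bud columns, 5536 (2703 and 2833) with the 6 columns alone, an alternative chosen after seeing the data, 5511 (2689 and 2822) with the column number as a replicate block, and 3420 (1579 and 1841) when given the spread among 48 h columns; DESeq2 called 3557 (1724 and 1833). Over all tested genes, deviations of same-numbered columns were not correlated (r from −0.0077 to −0.0013). Each gene weighed the same in r, so noise in weak genes can hide an effect tied to the number. Vitvi18g02973 was highest in column 3 of both groups (1848 and 4982 CPM). By chi-square, columns 1 and 2 lay nearest in every bud group with 3 columns (1.06 at pre-treatment and at 24 h). Columns 2 and 3 lay furthest apart in each of these groups but the 72 h control (1.17 at pre-treatment and 1.16 at 24 h). The order of the columns was thus largely shared between groups. What the numbers stand for was not tested.

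The higher list's share of counts was 2.55% before and 6.83% at 24 h without the count filter, and 6.25% at 24 h with RLE scaling; the lower list's was 2.88% and 1.12%, and 3.05% and 1.23%. Leaving out 1 column gave 2.19 to 2.28%, 6.06 to 6.35%, 3.05 to 3.33% and 1.24 to 1.37%. The median of 72 against 48 h was, without the count filter, 0.14 (higher list) and 0.34 (lower list); it was 0.46 for the higher list at 4-fold, and single columns left out gave 0.21 to 0.29 and 0.49 to 0.57. ABA against control at 48 h gave −0.62 and 0.38 without the filter, −1.44 and 0.65 at 4-fold, −0.94 for the higher list with a prior count of 5, and −0.83 to −0.68 and 0.45 to 0.56 with single columns left out. Signs turned at small medians: the higher list at 12 against 6 h (−0.030 at 4-fold) and with ABA at 6 h (−0.014 with a prior count of 5, −0.45 at 4-fold), the lower list in ABA buds at 72 h (−0.095 to 0.014, with 0.0018 and 0.014 without 24 h column 1 or 3) and in leaves (0.0019 without the filter, 0.080 at 4-fold). The cause was not tested. In leaves, leaving out 1 of the 24 h libraries gave 2 to 8 higher-list genes that rose and 8 to 24 that fell, and of the lower list 1 to 3 that rose and 0 to 2 that fell. DESeq2 called 5 lower-list genes higher, and 7 rose and 6 fell without the libraries of the second run code. Genes under 10 CPM are limited by depth.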

Other observations

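Grapevine gene identifiers carry a code, by convention the chromosome, and the genes higher or lower at 24 h were spread over all codes. For codes 1 to 19 the share of tested genes at least 2-fold higher ran from 3.87% to 5.97% and the share at least 2-fold lower from 4.07% to 6.91%. Of the 64 tested genes with code 0, 18 were lower (28.1%) and 4 higher (6.25%). This group was singled out after its values were seen.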
